A study of Mus musculus with 12 samples.

Results

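The core β-cell transcription factors (β-TFs) described here were 10 genes, Pdx1, Nkx6-1, Nkx2-2, Pax6, Neurod1, Rfx6, Foxa2, Gata6, Insm1 and Myt1. They were taken by gene symbol from a count table of 37991 Ensembl genes, where each had 1 row, and all 10 passed the filter on low counts that left 15961 genes for testing. The study asked how overexpression of miR-7 in β-cells changes the gene expression of whole islets. Bulk RNA-seq libraries were made from islets of male C57BL/6 mice, with 3 libraries in each of 4 groups: Wt at 2w, Tg7 at 2w, Wt at 12w and Tg7 at 12w. Tg7 mice overexpress miR-7a2 in β-cells, and the Wt animals were their littermates. All islets were released with Liberase and collected on a Histopaque gradient. Tg7 mice were normoglycaemic at 2w and hyperglycaemic at 12w per the study, so age and glycaemia cannot be told apart in the 12w against 2w comparison of Tg7 islets. Each library pooled the islets of at least 3 animals, so the p values given here measure the spread between pools and not between single mice.

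The β-TFs are DNA-binding proteins that build the endocrine pancreas in the embryo and later keep the β-cell in its mature state. Pdx1, Nkx6-1, Nkx2-2 and Pax6 carry homeodomains, Neurod1 is a basic helix-loop-helix protein, Rfx6 a winged-helix RFX protein and Foxa2 a forkhead protein. Gata6, Insm1 and Myt1 bind DNA through zinc fingers. Several of them are not restricted to β-cells: Nkx2-2, Pax6, Neurod1, Rfx6, Foxa2, Insm1 and Myt1 are also known from other islet endocrine cells, and Gata6 from mesenchymal and endothelial cells. In the mm9 annotation 6 of the 10 genes lie on chromosome 2, with Neurod1 at chr2:79292678-79296908, Pax6 at chr2:105509053-105543317, Insm1 at chr2:146047657-146050752, Nkx2-2 at chr2:147003282-147019979, Foxa2 at chr2:147868613-147872705 and Myt1 at chr2:181498037-181562502. Nkx6-1 lies at chr5:102087158-102094245, Pdx1 at chr5:148081535-148089584 and Rfx6 at chr10:51397562-51450235. In bulk islet RNA, fewer cells of a type and less RNA per cell cannot be told apart.

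Since the Tg7 line raises miR-7, the mature miRNA and its seed matches in the β-TF transcripts are shown first. miR-7a-5p, from RefSeq (GRCm38.p6), is printed with its seed, bases 2 to 8, in capitals.
mmu-miR-7a-5p: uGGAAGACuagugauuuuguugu
The annotated 3′ UTRs of mm9 were searched for the complement of bases 2 to 8 followed by an A (GTCTTCCA, an 8mer), that complement without the A (GTCTTCC, a 7mer-m8), and the complement of bases 2 to 7 followed by an A (TCTTCCA, a 7mer-A1). Of the 10 β-TFs, 3 held at least 1 match, namely Pdx1, Pax6 and Gata6, and 7 held none. Among the 14399 tested genes with an annotated 3′ UTR, 26.9% held a match of any of the 3 kinds and 4.35% held an 8mer. Pdx1 held 1 8mer and 2 matches of the 7mer-A1 kind in a 3′ UTR of 3183 bases on the plus strand of chromosome 5, and Pax6 held 2 of the 7mer-m8 kind on the plus strand of chromosome 2. Gata6 held 1 of the 7mer-A1 kind. The matches of Pdx1 and Pax6 are printed with flanking transcript sequence, 5′ to 3′, with the matched bases in capitals, because Pdx1 was the β-TF with the largest fall in 2w Tg7 islets and Pax6 had matches without a called change. The first line is the 8mer at chr5:148088695-148088702, the next 2 are at chr5:148086831-148086838 and chr5:148088063-148088070, and the last 2 at chr2:105537167-105537174 and chr2:105542256-105542263 (mm9), each given as the 8 bases opposite bases 1 to 8 of the miRNA.
Pdx1 8mer: tggaaggagatgatGTCTTCCAagggcttt
Pdx1 7mer-A1: ttcaaagagagcgctTCTTCCAatcccccc
Pdx1 7mer-A1: agctggccactagccTCTTCCAgtctccat
Pax6 7mer-m8: aaatgtaagtatttGTCTTCCctagaaatc
Pax6 7mer-m8: cccagaacttcagaGTCTTCCtgcctgctt
The first Pax6 match lies in the 3′ UTR of another annotated isoform (Pax6-026) than the second (Pax6-001). Genes with an 8mer were called lower in Tg7 islets at 2w in 7.67% of 626 cases and at 12w in 17.1%, against 4.87% and 11.9% of all tested genes with a 3′ UTR. They were called higher in 6.87% and 13.3%, against 6.49% and 13%. Their median log2 fold changes were −0.04 at 2w and −0.08 at 12w. These differences were not tested. A seed match is a description of the sequence and not a measured site. Among β-cell regulators the study names only Pax6 and Gata6 as carrying miR-7 sites in the 3′ UTR. It cites work in which miR-7 bound and repressed both. It proposes that Pdx1 falls downstream of their repression, and names no miR-7 site in Pdx1. The Pdx1 matches shown here were found by sequence alone. The libraries do not measure mature miRNA, and the rows of the miR-7 precursor genes Mir7-1, Mir7-2 and Mir7b held between 0 and 30 reads per library with overlapping ranges of Wt and Tg7, so they neither check nor contradict the genotype labels.

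Total counts per library ranged from 11610697 to 17515758. Ins1 and Ins2 together took 30%, 27% and 14.8% of the counts in 12w Wt replicates 1, 2 and 4, from 8.08% to 8.24% in 12w Tg7, from 10.1% to 15.4% in 2w Wt and from 1.84% to 4.09% in 2w Tg7. Replicate 4 of the 12w Wt group differed from replicates 1 and 2 by a chi-square per degree of freedom of 191 and 112 on raw counts, insulin genes included. Replicates 1 and 2 differed from each other by 73.7. Pairs within the other groups ranged from 7.23 to 43.1, so the 12w Wt group was the most varied. Values without replicate 4 are given where a call turns on it. Since a transcript that takes a large share of a library lowers the scaled counts of all others, counts were brought to a common library total with TMM factors (0.684 to 0.871 in 12w Wt, 0.968 to 1.19 elsewhere), and CPM below means counts scaled in this way. Over all genes the median Tg7 effect on the log2 scale was 0.027 at 2w and −0.013 at 12w with TMM and 0.19 and 0.43 with library size alone, and a called direction that depends on this is named beside its result. The defining acinar gene Amy2a5 had no count in any library, and the summed acinar markers stayed between 37.4 and 99.3 CPM. The summed α-cell markers ranged from 26200 to 82800 CPM with overlapping groups, while 6 of 10 stellate and fibroblast markers at 2w and 9 at 12w were called higher in Tg7, with sums of 328 to 476 CPM in 2w Wt, 517 to 685 CPM in 2w Tg7, 91.1 to 152 CPM in 12w Wt and 394 to 416 CPM in 12w Tg7. Over all genes 6.07% were called higher in Tg7 at 2w and 12.5% at 12w.

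Levels of different genes were compared per kilobase of annotated exon. In 2w Wt islets Nkx6-1 stood at 126 ± 16 CPM per kb (SD, n = 3), Insm1 at 112 ± 14.6 and Neurod1 at 102 ± 0.895, and each neighbour in this order differed by less than the larger of the 2 SDs. They were followed by Nkx2-2 at 74.4 ± 5.7 CPM per kb, then by Pdx1 at 45.4 ± 3.66 and Rfx6 at 43.2 ± 7.39, which differed by less than the SD of Rfx6, and by Foxa2 at 35.3 ± 0.427, which the lowest Rfx6 library reached. Pax6 at 24.7 ± 1.31, Myt1 at 12.8 ± 0.927 and Gata6 at 7.91 ± 0.832 CPM per kb came last. The order depended on the length used. Pax6, whose annotated exons sum to 19833 bases, stood at 58.2 ± 3.11 per kilobase of its longest coding transcript (8401 bases), and by that measure Nkx2-2 stood at 101 ± 7.74, level with Neurod1, and Rfx6 at 50 ± 8.55, above Pdx1. In 2w Tg7 islets, per kilobase of all exons, Neurod1 (75.6 ± 5.11 CPM per kb), Insm1 (68.2 ± 8.76), Nkx6-1 (67.1 ± 1.51) and Nkx2-2 (64.7 ± 11.6) stood close together at the top, and Pdx1 (18.5 ± 2.72) was level with Myt1 (18.3 ± 0.96), while per kilobase of the longest transcript Nkx2-2 came first (87.8 ± 15.8) and Myt1 stood above Pdx1 (23.1 ± 1.2). At 12w Nkx6-1 was first in both genotypes, at 153 ± 17.8 CPM per kb in Wt and 118 ± 3.58 in Tg7, and Gata6 was last in all 4 groups, at 5.39 ± 0.928 in 12w Wt and 7.73 ± 0.771 in 12w Tg7. Exons of Elp4, on the other strand, cover 27.9% of the annotated Pax6 exon bases, Nkx2-2as, also on the other strand, covers 9.67% of those of Nkx2-2, and Cerkl, on the same strand, covers 7.37% of those of Neurod1. No source used here says whether reads in these overlaps were counted.

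**Figure D1:**
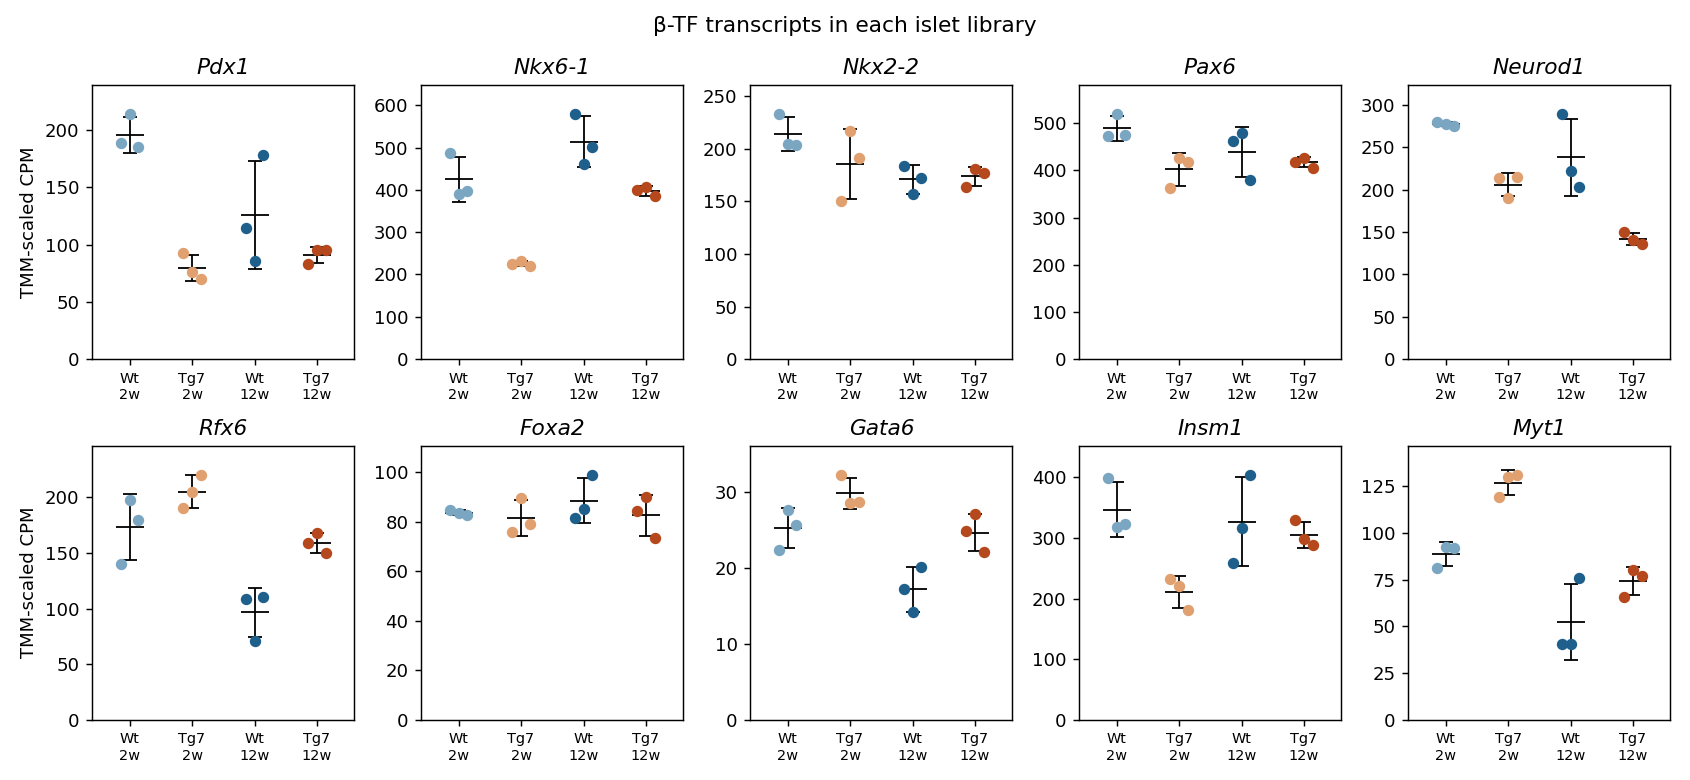
TMM-scaled CPM (y axis, from 0) of each of the 10 β-TFs in the 12 islet libraries, grouped on the x axis as Wt and Tg7 at 2w and at 12w. Points are libraries, and the horizontal line and bar are the group mean and SD (n = 3). Pdx1, Nkx6-1, Insm1, Neurod1 and Pax6 of 2w Tg7 lie below every 2w Wt library, and Myt1 and Gata6 lie above. Nkx6-1 and Neurod1 of 12w Tg7 lie below every 12w Wt library, and Rfx6 and Gata6 lie above.

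At 2w, before hyperglycaemia, 3 of the 10 β-TFs were downregulated in Tg7 islets (Pdx1, Nkx6-1 and Insm1), none was called higher and 7 did not pass the threshold of an adjusted p of 0.05 in edgeR. Over all 15961 genes tested, 4.55% were called lower and 6.07% higher in this comparison. The median log2 fold change of the 10 was −0.24. The Tg7 libraries lay below all Wt libraries for 5 β-TFs and above them for 2, against 18.1% and 17.8% of all genes.

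Pdx1, which is required for pancreas formation and activates the insulin genes, was at 189, 214 and 185 CPM in 2w Wt replicates 1 to 3 and at 92.8, 76.1 and 70.2 CPM in 2w Tg7. Every Tg7 library was below every Wt library, and the raw counts behind these values were between 1172 and 3472. This was a log2 difference of −1.30 (SE 0.21, adjusted p = 0.00149, edgeR), or a 2.46-fold lower level, which was the largest fall among the 10. With library size alone it was −1.13, and without any 1 library it was between −1.42 and −1.23 and stayed past the threshold.

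Nkx6-1, a repressor that keeps β-cells from adopting other endocrine fates, was at 487, 391 and 397 CPM in 2w Wt and at 225, 231 and 221 CPM in 2w Tg7. The groups did not overlap, and the 3 Tg7 libraries were within 10 CPM of each other. The log2 fold change was −0.91 (SE 0.13, adjusted p = 0.000503), or 1.88-fold lower, and it was −0.74 with library size alone.

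Insm1, a zinc finger repressor needed for endocrine cell differentiation, was at 399, 319 and 323 CPM in 2w Wt and at 232, 221 and 181 CPM in 2w Tg7, again without overlap. Insm1 changed by −0.72 on the log2 scale (SE 0.16, adjusted p = 0.0133). The call was lost without Wt 2w replicate 1 (−0.61), the highest Wt library, without Tg7 2w replicate 3 (−0.63), the lowest Tg7 library, and with library size alone (−0.55).

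Neurod1, a basic helix-loop-helix activator of insulin transcription, was at 280, 277 and 275 CPM in 2w Wt and at 214, 190 and 215 CPM in 2w Tg7. Although the groups did not overlap, its log2 fold change of −0.43 (SE 0.13) missed the threshold with an adjusted p of 0.0531, and it passed in DESeq2 (adjusted p = 0.0223), in an edgeR fit of the 2w libraries alone (adjusted p = 0.0153) and without Wt 12w replicate 1, 2 or 4 (−0.43 each).

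Pax6, which activates hormone genes in all islet endocrine cells, ranged from 472 to 519 CPM in 2w Wt and from 362 to 427 CPM in 2w Tg7, without overlap, and differed by −0.28 (SE 0.12, adjusted p = 0.151). Of the 3 β-TFs with a seed match, Pdx1 passed the threshold at 2w and Pax6 and Gata6 did not. At 12w Gata6 was called higher in Tg7 (0.52, adjusted p = 0.0275), and Pdx1 and Pax6 did not pass. Nkx2-2, which represses non-β fates, overlapped between 2w Wt and Tg7, with a difference of −0.20 on the log2 scale (SE 0.14, adjusted p = 0.37). Foxa2, a pioneer factor of the foregut endoderm, ranged from 82.8 to 84.8 CPM in 2w Wt and from 75.7 to 89.8 CPM in 2w Tg7, and its difference of −0.04 (95% interval −0.29 to 0.22) changed sign with upper-quartile factors (0.02) and library size alone (0.12).

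Higher values in 2w Tg7 were seen for the other 3 β-TFs, none past the threshold. Myt1, a zinc finger factor of endocrine progenitors, was at 81.2, 92.5 and 92.1 CPM in 2w Wt and at 119, 130 and 131 CPM in 2w Tg7. All Tg7 libraries were above all Wt libraries, and the log2 fold change of 0.52 (SE 0.20) had an adjusted p of 0.108. It passed with upper-quartile factors (0.57), in the fit of 2w libraries alone (0.52) and without Wt 12w replicate 4 (0.51), which is not a 2w library but enters the shared estimate of the spread; without that library Neurod1 (−0.43) and Pax6 (−0.29) passed as well, which made 6 called β-TFs, with 8.86% of 16460 genes called lower and 9.8% higher in that fit. Rfx6, which directs endocrine cells towards islet fates, differed by 0.25 (SE 0.17, adjusted p = 0.373) with overlapping groups, and Gata6, a zinc finger factor of pancreas formation, by 0.24 (SE 0.15, adjusted p = 0.331) with Tg7 libraries from 28.6 to 32.3 CPM and Wt libraries from 22.4 to 27.7 CPM.

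At 12w, with hyperglycaemia, 2 β-TFs were lower (Neurod1 and Nkx6-1), 2 were higher (Rfx6 and Gata6) and 6 did not pass. Among all genes tested 11.2% were called lower and 12.5% higher. The median log2 fold change of the 10 was −0.09. The groups did not overlap for 4 of them, 2 in each direction, against 16.3% of all genes lower and 20.7% higher.

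Neurod1 was at 289, 222 and 203 CPM in 12w Wt replicates 1, 2 and 4 and at 150, 141 and 136 CPM in 12w Tg7. All 3 Tg7 libraries were below the Wt libraries. The log2 fold change was −0.74 (SE 0.13, adjusted p = 0.00121, edgeR), it was −0.84 without Wt 12w replicate 4, and it stayed past the threshold without any 1 library (−0.84 to −0.60), but with library size alone it was −0.28 and not past it.

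Nkx6-1 was at 579, 461 and 501 CPM in 12w Wt and at 399, 408 and 385 CPM in 12w Tg7. The groups did not overlap, and its log2 fold change of −0.37 (SE 0.12) had an adjusted p of 0.0448, close to the threshold. The call was lost without any 1 of 9 libraries (−0.39 to −0.30), kept when Wt 2w replicate 1 (−0.37), replicate 2 of 12w Wt (−0.44) or replicate 4 of 12w Wt (−0.38) was left out, and lost with upper-quartile factors (−0.28), with no filter on low counts (−0.36) and in the fit of 12w libraries alone (−0.40). With library size alone it turned to 0.09.

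Rfx6 was at 109, 71 and 110 CPM in 12w Wt and at 159, 168 and 150 CPM in 12w Tg7. Every Tg7 library was above every Wt library, and the rise of 0.72 (SE 0.17, adjusted p = 0.00728), or 1.65-fold, stayed past the threshold without any 1 library (0.54 to 0.83) and under each scaling (0.71 to 1.17). Gata6 was lower in level, at 17.3, 14.2 and 20.1 CPM in 12w Wt and at 24.9, 27.1 and 22.1 CPM in 12w Tg7, with raw counts from 137 to 489. Its difference was 0.52 on the log2 scale (SE 0.16, adjusted p = 0.0275), and it missed the threshold when Wt 12w replicate 1 (0.50) or 2 (0.40) or Tg7 12w replicate 1 (0.54) or 2 (0.45) was left out, and in the fit of 12w libraries alone (0.49).

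Of the lists of other cell types, all 9 endothelial markers, 9 of 10 stellate and fibroblast markers, 3 of 6 Schwann cell markers and 2 of 7 ductal markers were higher in 12w Tg7 and none lower, with summed endothelial markers at 381 to 514 CPM in Wt and 814 to 875 CPM in Tg7. The counts called higher were 9, 9, 1 and 1 without Wt 12w replicate 4. Their part in the rise of Gata6, which mesenchymal and endothelial cells also express, was not tested. Of the 9 acinar markers tested, 2 were lower and none higher at 12w, and of the 8 macrophage markers 1 was lower and none higher. Over all genes 12.5% were called higher and 11.2% lower at 12w. Of the 13 pan-endocrine markers 4 were higher and none lower at 12w, with a median log2 fold change of 0.33, and of the 9 α-cell markers 1 was higher and none lower, with a median of 0.21. The part of the share of endocrine cells in the rise of Rfx6 was not tested.

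The 12w values of Pdx1 and Myt1 rested on 1 library. Pdx1 was at 115, 86 and 178 CPM in 12w Wt and at 82.7, 95.4 and 95 CPM in 12w Tg7. The groups overlapped, and the highest value was that of Wt replicate 4, the library with the low insulin share. The log2 fold change of −0.47 (SE 0.21) had an adjusted p of 0.117, became −0.13 (adjusted p = 0.556) without that library, and became −0.69 (adjusted p = 0.0142) without Wt 12w replicate 2. Myt1 was at 40.6, 40.6 and 75.9 CPM in 12w Wt and at 65.7, 80.2 and 76.8 CPM in 12w Tg7, and of the Wt libraries replicate 4 alone reached the Tg7 range. Its difference of 0.50 on the log2 scale (SE 0.20, adjusted p = 0.0881) became 0.87 (adjusted p = 0.000139) without replicate 4, and also passed with upper-quartile factors (0.61) and library size alone (0.91). Without replicate 4 the 12w count was 3 β-TFs higher and 2 lower, with 13% of 16460 genes called higher and 10.7% lower in that fit.

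The remaining 4 β-TFs overlapped between Wt and Tg7 at 12w. Insm1 ranged from 259 to 404 CPM in Wt and from 289 to 330 CPM in Tg7, with a difference of −0.10 (95% interval −0.45 to 0.25), and it was 0.09 without Wt 12w replicate 4. Pax6 ranged from 380 to 479 CPM in Wt and from 406 to 427 CPM in Tg7 and differed by −0.08 (95% interval −0.34 to 0.18). Nkx2-2 differed by 0.02 (95% interval −0.27 to 0.32) and Foxa2 by −0.10 (95% interval −0.36 to 0.16). The signs of Insm1, Pax6 and Foxa2 turned with library size alone (0.32, 0.38 and 0.34), where Pax6 and Nkx2-2 (0.48) were called higher, so that the 12w count became 5 β-TFs higher and none lower, where 32.6% of all genes were called higher and 2.26% lower.

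**Figure D2:**
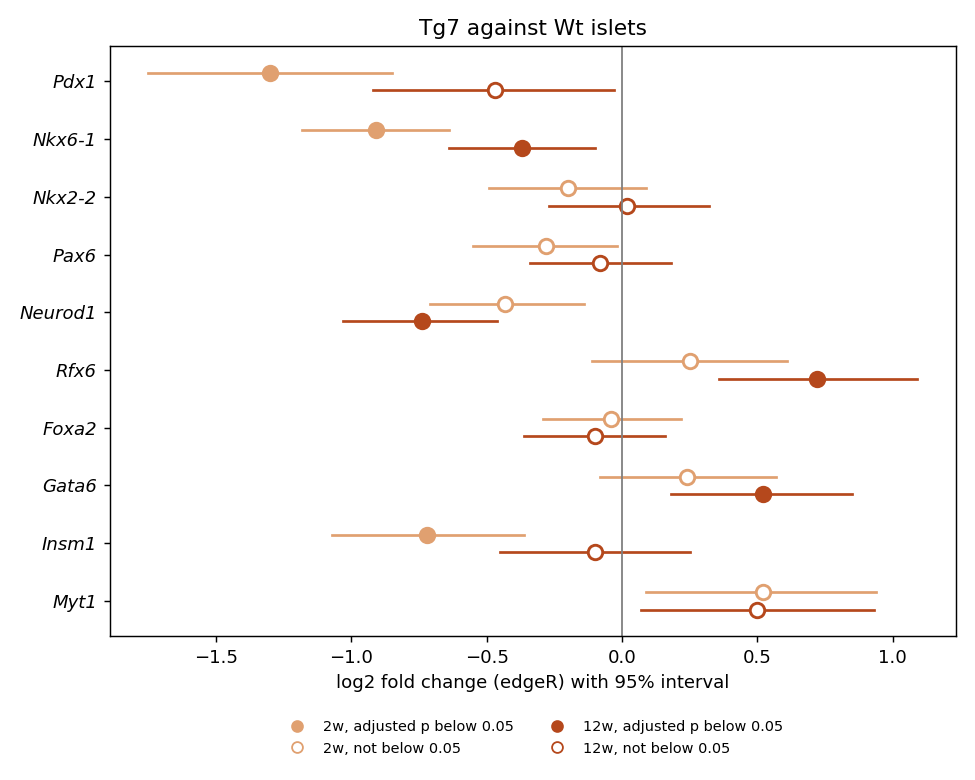
Log2 fold change of Tg7 against Wt islets (x axis, edgeR) for each β-TF (y axis) at 2w and at 12w, with 95% intervals. Filled points have an adjusted p below 0.05. Pdx1, Nkx6-1 and Insm1 are filled at 2w, and Neurod1, Nkx6-1, Rfx6 and Gata6 at 12w.

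**Figure D3:**
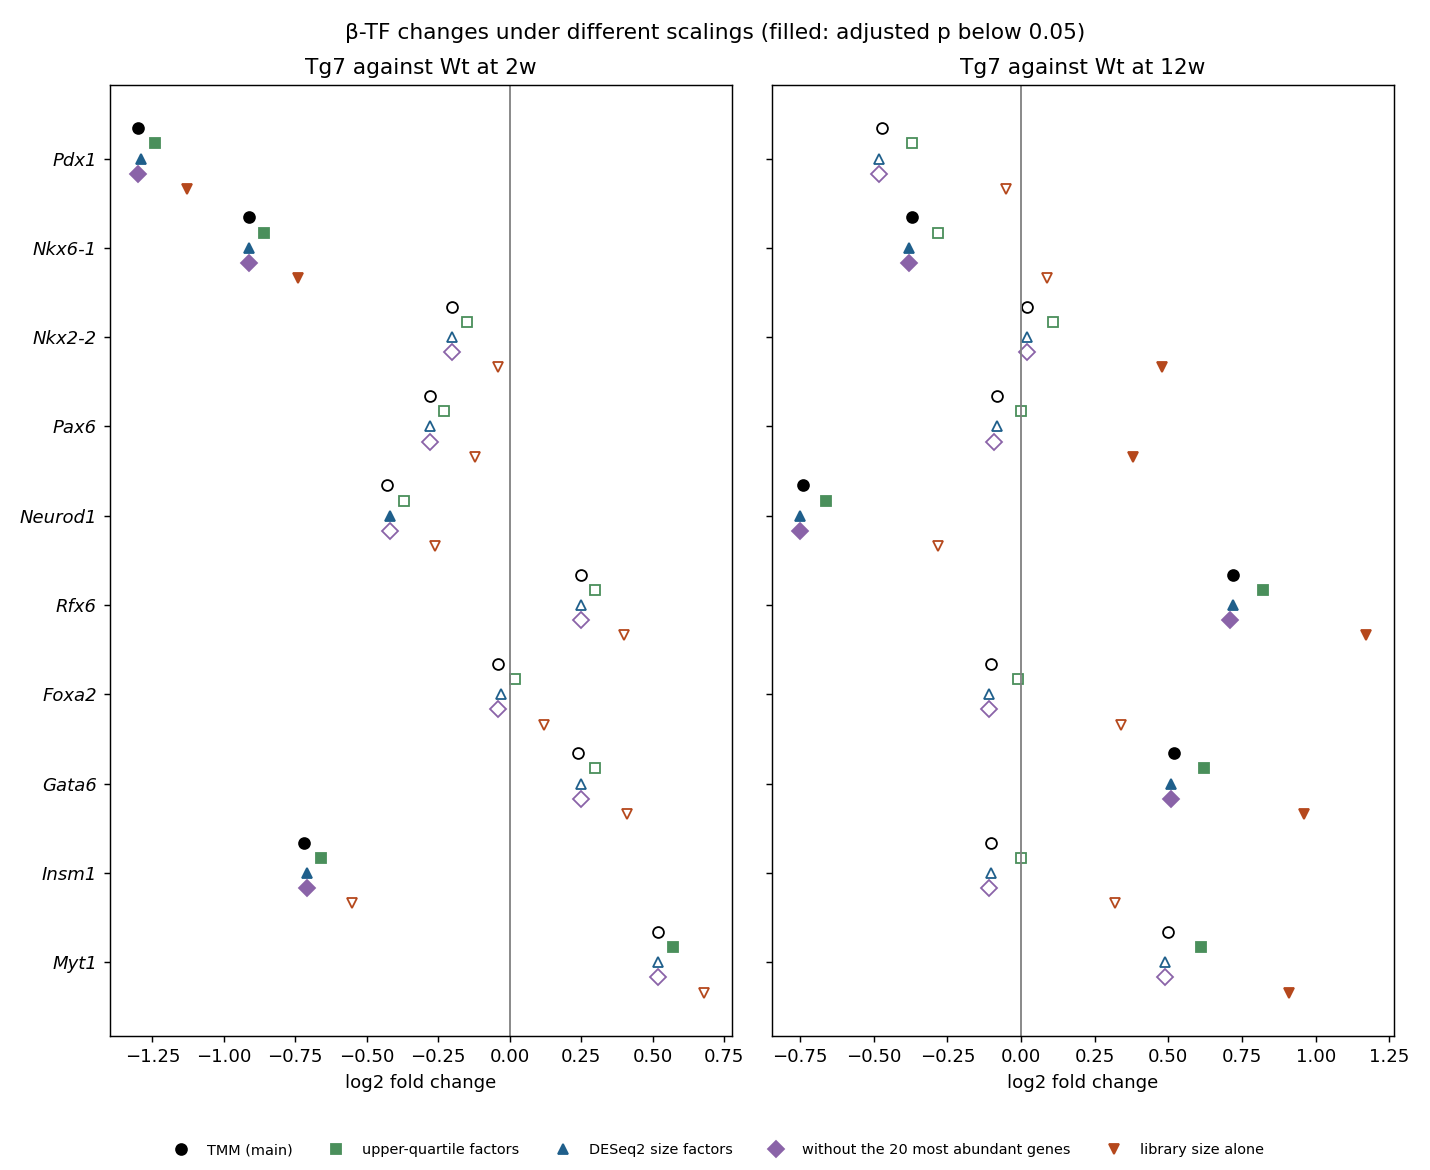
Log2 fold change of Tg7 against Wt (x axes) for each β-TF (y axis) at 2w (left) and 12w (right) under 5 ways of scaling, one marker shape each, filled where the adjusted p is below 0.05. The points of TMM, DESeq2 size factors and the fit without the 20 most abundant genes lie together, and library size alone lies to the right of them, most of all at 12w.

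Whether the effect of Tg7 differed between the ages was tested as an interaction. No β-TF passed in edgeR or in DESeq2, and 3 had an unadjusted p below 0.05 in edgeR, while 0.871% of all genes had a higher and 0.307% a lower log2 fold change at 12w than at 2w past the threshold. The effect on Pdx1 was 0.82 higher at 12w (SE 0.29, adjusted p = 0.215), that on Nkx6-1 0.54 higher (SE 0.18, adjusted p = 0.173) and that on Insm1 0.62 higher (SE 0.23, adjusted p = 0.237). Without Wt 12w replicate 4 the differences of Pdx1 (1.17, adjusted p = 0.00663, edgeR) and Insm1 (0.81, adjusted p = 0.0353) passed, so these calls depend on that library. With library size alone Nkx6-1 passed (0.83). For Neurod1 the difference was −0.32 (95% interval −0.71 to 0.08) and for Rfx6 0.48 (95% interval −0.03 to 0.99).

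The change with age was compared within each genotype, and it shares its libraries with the comparisons above. In Wt islets 3 β-TFs were lower at 12w than at 2w (Rfx6, Gata6 and Myt1) and none higher, while 7.91% of all genes were called lower and 7.9% higher. For 5 β-TFs the 12w Wt libraries lay below all 2w Wt libraries, against 15.6% of all genes. Rfx6 went from 140, 198 and 180 CPM to 109, 71 and 110 CPM, without overlap, and its difference of −0.84 on the log2 scale (SE 0.17, adjusted p = 0.00439) held without any 1 library (−0.98 to −0.67).

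Gata6 fell by 0.55 on the log2 scale in Wt (SE 0.16, adjusted p = 0.0279) and Myt1 by 0.75 (SE 0.20, adjusted p = 0.0204), and both calls were lost without Wt 2w replicate 2 (−0.49 and −0.73) or 3 (−0.54 and −0.73) and without Wt 12w replicate 1 (−0.54 and −0.59) or 2 (−0.43 and −0.60), and in the fit of Wt libraries alone (−0.59 and −0.79). Without Wt 12w replicate 4 Gata6 differed by −0.70 and Myt1 by −1.13. Pdx1 differed by −0.63 (SE 0.21, adjusted p = 0.0526) with groups that did not overlap, and passed without Wt 12w replicate 4 (−0.98), without Tg7 2w replicate 1 or 3 (−0.66 each), in DESeq2 (−0.63), with upper-quartile factors (−0.69) and with either other filter on low counts (−0.64). Neurod1 differed by −0.22 (SE 0.13, adjusted p = 0.269) and passed without Wt 12w replicate 1 (−0.37). With library size alone 7 β-TFs were called lower in 12w Wt, namely Rfx6, Gata6 and Myt1 and also Pdx1 (−1.01), Nkx2-2 (−0.72), Neurod1 (−0.64) and Pax6 (−0.56), where 23.8% of all genes were called lower and 2.04% higher. Foxa2 (0.08, 95% interval −0.17 to 0.34) and Insm1 (−0.09, 95% interval −0.44 to 0.26) had the smallest differences with age in Wt. All 9 endothelial markers and 7 of 10 stellate and fibroblast markers were also lower at 12w in Wt. The summed endothelial markers were at 891 to 1130 CPM at 2w and 381 to 514 CPM at 12w. Of the 9 α-cell markers 5 were lower and 1 higher. Over all genes 7.91% were called lower and 7.9% higher. The part of these cell types in the falls of Rfx6, Gata6 and Myt1 was not tested.

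In Tg7 islets 2 β-TFs were higher at 12w than at 2w (Nkx6-1 and Insm1) and 2 lower (Neurod1 and Myt1), with 7.02% of all genes called higher and 6.01% lower. Nkx6-1 went from 225, 231 and 221 CPM to 399, 408 and 385 CPM, and this rise of 0.81 (SE 0.13, adjusted p = 0.000824) was the only one of the 4 that held without any 1 library (0.80 to 0.84). Insm1 rose by 0.53 (SE 0.16, adjusted p = 0.0474), a call lost without any 1 of 10 libraries (0.44 to 0.60), with library size alone (0.41) and without the 20 most abundant genes (0.53, adjusted p = 0.0507). Neurod1 fell by 0.54 (SE 0.13, adjusted p = 0.0156), a call lost without Tg7 2w replicate 1 (−0.52) or 3 (−0.50) or Tg7 12w replicate 2 (−0.53) or 3 (−0.50). Myt1 went from 119, 130 and 131 CPM to 65.7, 80.2 and 76.8 CPM, a fall of 0.77 (SE 0.20, adjusted p = 0.0193) that was lost without Tg7 2w replicate 2 (−0.75) or 3 (−0.74) or Tg7 12w replicate 1 (−0.69), 2 (−0.83) or 3 (−0.79). Pdx1, at 70.2 to 92.8 CPM in 2w Tg7 and 82.7 to 95.4 CPM in 12w Tg7, differed by 0.19 (95% interval −0.25 to 0.63). Rfx6 differed by −0.37 (SE 0.17, adjusted p = 0.176) and Gata6 by −0.28 (SE 0.15, adjusted p = 0.259), both without overlap. Rfx6 passed in the edgeR fit of Tg7 libraries alone (−0.38, adjusted p = 0.018). The 12w Tg7 libraries lay below all 2w Tg7 libraries for 4 β-TFs and above them for 2, against 19.2% and 21.5% of all genes.

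**Figure D4:**
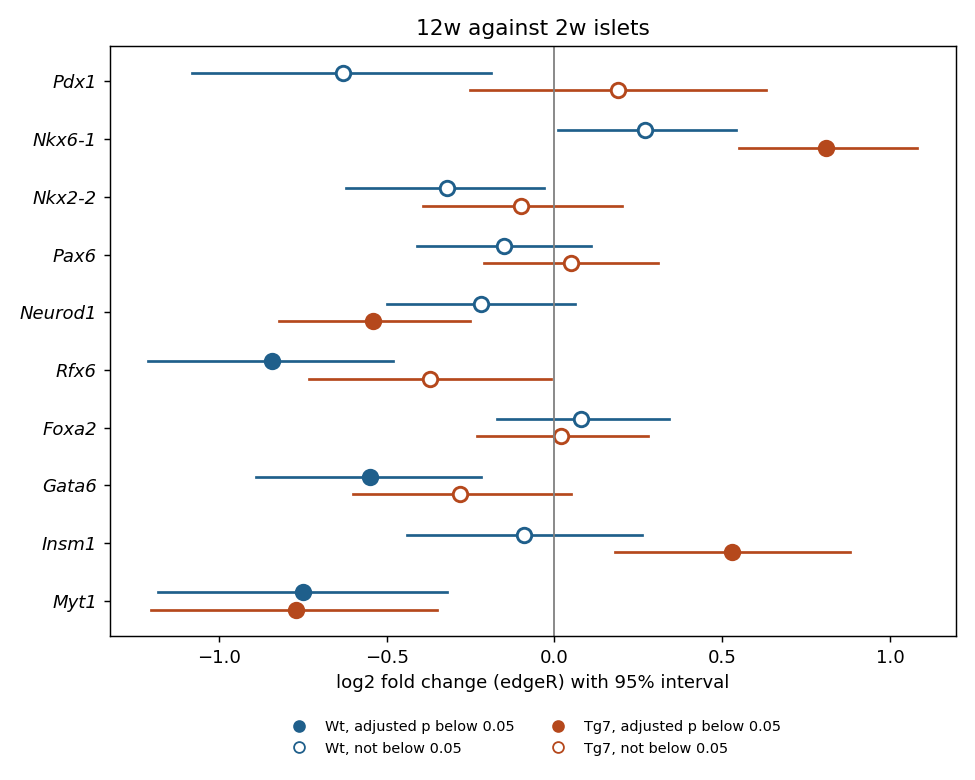
Log2 fold change of 12w against 2w islets (x axis, edgeR) for each β-TF (y axis) in Wt and in Tg7, with 95% intervals. Filled points have an adjusted p below 0.05. Rfx6, Gata6 and Myt1 are filled on the left in Wt, and in Tg7 Nkx6-1 and Insm1 are filled on the right and Neurod1 and Myt1 on the left.

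The 10 β-TFs varied in different ways over the 12 libraries. As a description of log2 CPM, with points that share groups and sequencing libraries, Rfx6 and Gata6 had a Pearson r of 0.96 over the 12 libraries (0.79 after subtracting each group's mean), Gata6 and Myt1 of 0.90 (0.62) and Rfx6 and Myt1 of 0.88 (0.51). Pdx1 had an r of 0.70 with Insm1 (0.49 after subtracting group means) and 0.59 with Neurod1 (−0.32), and Nkx6-1 of 0.78 with Insm1 (0.06) and −0.82 with Myt1 (−0.23). The opposite held for Pdx1 with Gata6 and with Myt1, whose r was −0.08 and −0.07 over the 12 libraries but 0.79 for both after subtracting the group means, with replicate 4 the highest 12w Wt library for all 3 genes.

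By the same measure over the 12 libraries, the 3 tested genes most like Pdx1 were Fzd7 (r = 0.973), a Wnt receptor, Adra2a (0.943), the adrenergic receptor that restrains insulin secretion, and 2900026A02Rik (0.94). Those most like Nkx6-1 were Tmem90a, Ociad1 and Gatad2a (0.969 to 0.978), and those most like Insm1 were Fam19a1 (0.921), Pcsk1 (0.92), a convertase of proinsulin, and Psmd5 (0.914). Neurod1 was matched by Dusp18, Grip1 and Nmt2 (0.952 each). Rfx6 was followed most closely by Adcy1 (0.971), an adenylyl cyclase, Ptprz1 (0.964) and Gata6 (0.959), Gata6 by Mkl2 (0.984), Kank2 (0.961) and Rfx6, and Myt1 by Lrp1 (0.97), an endocytic receptor, Lrrc49 and Map3k15 (0.961 each). For Nkx2-2, Pax6 and Foxa2, which passed in none of the 5 comparisons, no gene reached an r of 0.9, and the nearest were C430048L16Rik, Ftsjd2 and Efnb3, then Wbscr22, Unc13a and Rimkla, then Syt12 and Dis3l2 (0.821 to 0.899).

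Many genes that the β-TFs are known to regulate in β-cells were downregulated. Of 21 such target genes, all tested, 13 were lower and none higher in 2w Tg7 (median log2 fold change −1.29), and 13 were lower and 1 higher in 12w Tg7 (median −1.52). Of all genes tested, 4.55% were called lower and 6.07% higher at 2w, and 11.2% and 12.5% at 12w. Without Wt 12w replicate 4 those shares were 8.86% and 9.8% at 2w, and 10.7% and 13% at 12w. In that fit 16 target genes were lower and 1 higher at 2w, and 12 were lower and 1 higher at 12w with a median of −0.51. Glp1r, the GLP-1 receptor, went from −1.67 to −0.45 at 12w and lost its call. At 2w the largest falls were those of Ovol2, an epithelial transcription factor (−6.50, SE 0.65), Mafa, the activator of insulin genes in mature β-cells (−4.78, SE 0.40), Ucn3, a peptide of mature β-cells (−3.60, SE 0.31), G6pc2, a glucose-6-phosphatase (−3.56, SE 0.21), and Ins2 (−2.49, SE 0.37). At 12w they were those of Mafa (−5.02, SE 0.41), Ucn3 (−4.96, SE 0.34), Ins1 (−3.85, SE 0.42), G6pc2 (−3.40, SE 0.21) and Ovol2 (−3.11, SE 0.52). Mafa itself went from 189 to 254 CPM in 2w Wt to 6.95 to 8.48 CPM in 2w Tg7. Ovol2 was near the floor in Tg7, so the size of its falls is uncertain. It had 7 reads in all 2w Tg7 libraries together (0.0649 to 0.213 CPM, against 10.2 to 13.6 CPM in 2w Wt). In 12w Tg7 it had 46 reads (0.166 to 1.69 CPM, against 5 to 9.21 CPM in 12w Wt). The gene called higher at 12w was Fgfr1, a growth factor receptor (0.44, SE 0.11, adjusted p = 0.00965). Iapp, Pcsk2 and Ttr did not pass at either age, and Cacna1a did so at 2w only without Wt 12w replicate 4 (−0.39).

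**Figure D5:**
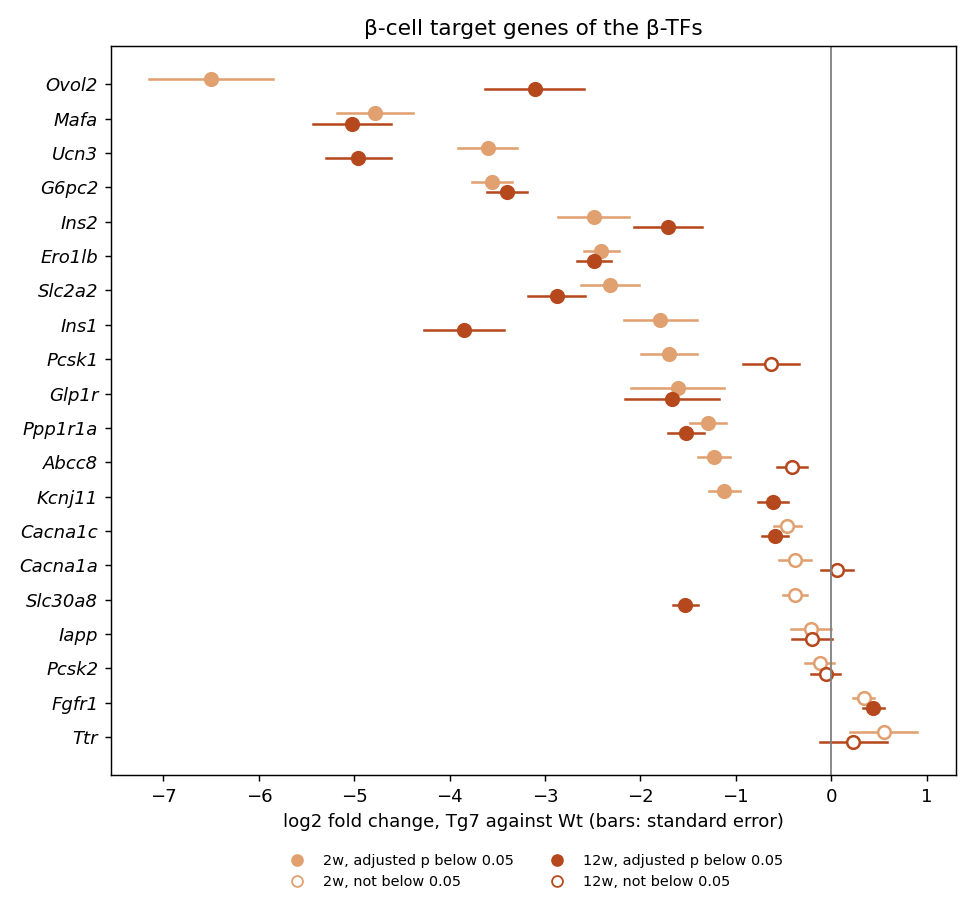
Log2 fold change of Tg7 against Wt (x axis, bars are standard errors) for 20 of the 21 known β-cell target genes of the β-TFs (y axis, ordered by the 2w value) at 2w and 12w. Filled points have an adjusted p below 0.05. At each age 13 are filled on the left, and Ovol2 lies farthest to the left at 2w (−6.50) and Mafa at 12w (−5.02). The 2w value of Ovol2 rests on 7 reads in all 2w Tg7 libraries together.

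Of 40 other islet transcription factors, 33 were tested, of which 2 were lower (Mafa and Lmx1b, −1.03, SE 0.20) and 1 higher at 2w (Neurog3, the endocrine progenitor factor, 0.98, SE 0.27, adjusted p = 0.034). At 12w 3 were lower (Mafa, Nr4a1 at −2.02, SE 0.54, and Lmx1b at −0.63, SE 0.20) and 3 higher, namely Neurog3 (1.69, SE 0.27, adjusted p = 0.000575), Mlxipl (0.68, SE 0.21), a glucose-responsive factor, and Isl1 (0.42, SE 0.14). When Wt 12w replicate 4 was left out the 12w counts were also 3 and 3, but Isl1 (0.43, adjusted p = 0.055) and Lmx1b (−0.49, adjusted p = 0.112) did not pass, and Mnx1 (0.77) and Sox4 (−0.32) did. At 2w the counts in that fit were 5 lower and 2 higher, with Nr4a1 (−1.52), Mnx1 (−0.84), St18 (−0.59) and Hnf4a (0.78) added. In that fit 8.86% of all genes were called lower and 9.8% higher at 2w, and 10.7% and 13% at 12w. Of all 15961 genes, 4.55% were called lower and 6.07% higher at 2w, and 11.2% and 12.5% at 12w. Neurog3 went from 5.52 to 8.69 CPM in 2w Wt to 9.74 to 15.3 CPM in 2w Tg7, and from 5.4 to 8.95 CPM to 18.8 to 31.7 CPM at 12w, without overlap at either age. From 2w to 12w, 13 of the 33 were lower and none higher in Wt, and 10 were lower and 1 higher in Tg7, with 7.91% and 6.01% of all genes called lower. Without Wt 12w replicate 4, 12 were lower and 1 higher in Wt, and 9 of the 13 stayed lower. The α-cell factor Irx1 was lower with age in both genotypes, also without that library, and the δ-cell factor Hhex was lower in both but not past the threshold in Wt without it (−0.62, adjusted p = 0.057).

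Of 34 paralogs of the β-TFs, 16 were tested, of which 1 was higher and none lower at 2w and 2 were higher and 1 lower at 12w. Of all genes tested, 6.07% were called higher and 4.55% lower at 2w, and 12.5% and 11.2% at 12w. Neurog3, related to Neurod1, was higher at both ages. Rfx2 was higher at 12w (0.93, SE 0.19, adjusted p = 0.00362), Rfx4 was lower at 12w (−2.07, SE 0.71, adjusted p = 0.0495), a call lost without Wt 12w replicate 4 (−1.76, adjusted p = 0.148), and the remaining RFX genes tested, Rfx1, Rfx3, Rfx5 and Rfx7, did not pass at either age. Foxa3 differed by 0.28 and 0.15 at 2w and 12w, Gata2 by −0.24 and 0.67, Gata3 by 1.49 and −0.50, Gata4 by 0.02 and −1.25, and the Myt1 relatives Myt1l by −0.06 and 0.19 and St18 by −0.59 and −0.64, none past the threshold, though St18 passed at 2w without Wt 12w replicate 4 (−0.59, adjusted p = 0.0192). Nor did Cdx4, Nkx6-3 and Nkx2-1 pass.

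Of 27 cofactors that bind or recruit with the β-TFs, 26 were tested, and none passed at 2w (median log2 fold change −0.14), but 6 of 27 were called lower there without Wt 12w replicate 4, where 8.86% of all genes were called lower. At 12w 3 were higher, namely Tcf3 (0.55, SE 0.13), the E protein partner of Neurod1, Ldb1 (0.50, SE 0.17), the adaptor that joins Isl1, and Isl1 (0.42, SE 0.14). Tle3, a Groucho corepressor (−0.82, SE 0.16, adjusted p = 0.00212), and Smarca4, the ATPase of the SWI/SNF complex (−0.47, SE 0.12, adjusted p = 0.0108), were lower at 12w. Of all genes tested, 12.5% were called higher and 11.2% lower at 12w. Without Wt 12w replicate 4, Isl1 did not pass (0.43), Chd4 (0.67), Kdm1a (0.51), Hdac2 (0.47) and Smarca2 (0.35) did, and the 12w count was 6 higher and 2 lower.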

How the data were processed

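The deposited values are raw counts per Ensembl gene, which the authors obtained with featureCounts from paired-end reads trimmed with Trimmomatic and placed on mm9 by TopHat2 2.0.11. No source used here gives the version of featureCounts or its strand setting. All 12 columns were used. Symbols came from the GENCODE annotation of mm9. Counts were filtered with filterByExpr (minimum count 10, minimum total 15), scaled with TMM and fitted in edgeR as 4 group means (glmQLFit, glmQLFTest, no block), with Benjamini-Hochberg adjustment over 15961 genes and a threshold of 0.05. All p values come from this test unless another tool is named. Standard errors (SE) were derived from each log2 estimate and its F statistic. No pairing of libraries by number was assumed. Correlations used log2 CPM with a prior count of 2.

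The β-TFs and the gene lists were chosen with earlier results of these data known, and the lists support nothing independently. Named were all β-TFs, up to 5 called genes per list and Tg7 comparison with the largest absolute log2 fold change, tested paralogs, up to 3 defining markers per list and the 3 genes most like each β-TF. Irx1 and Hhex in the comparison with age, and Iapp, Pcsk2, Cacna1a, Ttr, Glp1r and Fgfr1 among the targets, and genes named for changing without Wt 12w replicate 4, were named after their values were seen. Some genes that this rule would name, or that a plot would show, are not reported here. Alternatives were library size alone, upper-quartile factors, DESeq2, no filter, a stricter filter (50 counts in 3 libraries), each age or genotype alone, a replicate block, each library left out and, chosen after seeing the data, a fit without the 20 most abundant genes. Fits used edgeR 4.0.16 (on limma 3.58.1) and DESeq2 1.42.0 under R 4.3.3. Sequence searches ran in Python 3.11.15 and plots in matplotlib 3.10.9.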

Additional observations from a re-analysis of the deposited data

How the results depend on the processing

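Of 390 values of single β-TFs under settings that kept all libraries, 335 kept their direction and their side of the threshold, as did 526 of 600 with 1 library left out. DESeq2, either other filter and the fit without the 20 most abundant genes reversed none. The depth limits Gata6 most, with at most 605 reads per library.

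The number of β-TFs called at 2w was 5 with each age alone, and 2 to 6 with 1 library left out. At 12w it was 2 with each age alone, and 2 to 5 with 1 library left out. The interaction gave 1 with library size alone, and 0 to 2 with 1 library left out. The change with age in Wt gave 7 with library size alone, 1 with each genotype alone, and 1 to 4 with 1 library left out. The change with age in Tg7 gave 1 to 4 with 1 library left out. With Tg7 alone, 2 β-TFs were higher and 3 lower at 12w than at 2w, Rfx6 (−0.38) being added. In that fit 11.3% of all genes were called higher and 10.8% lower. Over the fits with 1 library left out the number of all genes called ranged from 754 to 3071 at 2w, 2417 to 4036 at 12w, 82 to 579 in the interaction, 1336 to 4020 with age in Wt and 1115 to 3329 in Tg7. With each age alone, 7.61% of all genes were called higher and 7.79% lower at 2w, and 9.51% and 8.06% at 12w. With Wt alone, 3.33% were called higher and 5.33% lower at 12w than at 2w. The interaction with library size alone gave 2.02% higher and 0.15% lower. With a library left out the filter kept more genes, and the group of 2 was assumed to vary like the others.

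Libraries of the same number and age had residual correlations from −0.167 to −0.0112, so the replicate numbers do not pair them. In the fit with a replicate block, Wt 12w replicate 4 is alone with its number and carries no weight. With this replicate block, β-TFs called numbered 5 at 2w (Neurod1 −0.43 and Myt1 0.52 added), 4 at 12w (Nkx6-1 lost at −0.35, Myt1 added at 0.84), 2 in the interaction (Pdx1 1.21 and Insm1 0.87) and 4 with age in Wt (Pdx1 added at −1.01), with 8.46% of all genes called higher and 8.02% lower at 2w. The shares of all genes called higher and lower were 12.5% and 9.9% at 12w and 2.14% and 1% in the interaction. With age in Wt they were 11.7% and 12.2%. In that fit the signs turned at 12w for Foxa2 (0.02) and Insm1 (0.15), in the interaction for Foxa2 (0.07) and Myt1 (0.32), and with age in Wt for Foxa2 (−0.04), none of them past the threshold.

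Library size alone turned the sign at 2w for Foxa2 (0.12), at 12w for Nkx6-1 (0.09), Pax6 (0.38), Foxa2 (0.34) and Insm1 (0.32), in the interaction for Foxa2 (0.21) and Myt1 (0.24), with age in Wt for Nkx6-1 (−0.13) and Foxa2 (−0.30), and with age in Tg7 for Pax6 (−0.06) and Foxa2 (−0.09). Upper-quartile factors turned Foxa2 at 2w (0.02), Pax6 (0.00) and Insm1 (0.00) at 12w and Myt1 in the interaction (0.03), and the fit of 12w libraries alone turned Nkx2-2 (0.00). Of these, Pax6 at 12w with library size alone was past the threshold, and the cause of the turns was not tested.

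With 1 library left out, values that turned sign in at least 1 case ranged as follows: Foxa2 from −0.12 to 0.01 at 2w, Nkx2-2 from −0.03 to 0.09 and Insm1 from −0.26 to 0.09 at 12w, Foxa2 from −0.14 to 0.04 and Myt1 from −0.19 to 0.36 in the interaction, Foxa2 from −0.01 to 0.15 and Insm1 from −0.28 to 0.06 with age in Wt, and Nkx2-2 from −0.23 to 0.03, Pax6 from −0.02 to 0.10 and Foxa2 from −0.04 to 0.10 with age in Tg7.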
